A study of Mus musculus with 14 samples.

Results

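The genes described here are the tubulins and a set of proteins that bind microtubules or share the neuronal cytoskeleton with them. They comprise every gene whose symbol names an alpha, beta or gamma tubulin with a number (17 genes, pseudogenes left out) and 22 listed genes for microtubule-associated proteins, stathmins, doublecortins, collapsin response mediators, TPPP proteins and neurofilaments. These are 39 of the 46983 genes in each deposited table, and all 39 have a row in both. The name fits 36 of them. The other 3, Nefl, Nefm and Nefh, encode neurofilaments, which are intermediate filaments and not microtubule proteins, so they are counted apart.

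RNA was sequenced from mice of an FvB/C57BL6 hybrid strain in 2 systems. In the first, corpus callosum was taken 4 days after tamoxifen from mice injected at 8 weeks of age. The 4 libraries labelled Qk-KO (genotype Qk-/-) came from Plp-CreERT2;QKLoxP/LoxP mice and the 4 labelled WT from Plp-CreERT2;QKLoxP/+ mice, so the controls carry the Cre, 1 floxed allele and the tamoxifen as well. The Plp promoter drives the recombinase in the oligodendrocyte lineage, while the RNA comes from the whole tissue. In the second, neural stem cells labelled WT or Qk-KO, at passages 7, 12 and 13, were differentiated toward oligodendrocytes (3 libraries each). Their medium held IGF-1 at 100 ng/ml, the thyroid hormone T3 at 50 ng/ml, B-27 and GlutaMAX-I at 2 mM. Every culture labelled Qk-KO carries 40HT in its description and every culture labelled WT carries EtOH, so genotype and treatment cannot be told apart there. Qk encodes quaking, an RNA-binding protein of myelinating glia. Qk RNA itself had a log2 change of 0.32 ± 0.12 in callosum (SE, adjusted p = 0.162, authors' deposited table) and rose by 0.66 ± 0.14 in culture (adjusted p = 4.19e-05). A lower level was seen in neither system. The tables give 1 value for the whole gene and none for the floxed segment, so this tests neither deletion nor labels.

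Microtubules are hollow tubes of alpha and beta tubulin dimers, seeded by gamma tubulin. The isotypes differ mostly at their acidic ends, where motors, associated proteins and modifying enzymes act. Neurons rely on long stable microtubules for axonal transport, and oligodendrocytes on a branched array that carries RNA and membrane into their processes. Associated proteins such as MAP2 and tau stabilise the tubes, stathmins take up free dimers, doublecortins brace the microtubules of migrating neurons, collapsin response mediators bring dimers to growing axons, and TPPP promotes microtubule growth in oligodendrocytes.

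The library columns hold fitted model means, which differ between libraries of a genotype only by a size factor, so each gene has 1 level per genotype and its error is the deposited standard error. Levels are given as CPM, computed from the fitted means, and, between genes, as fitted CPM per kilobase of annotated exon. Gene coordinates are those of GENCODE M21 on GRCm38. A gene was called higher or lower at a deposited adjusted p under 0.05. Library totals of these means ran from 15048646 to 27666519 in callosum and from 38325833 to 48912999 in culture. In culture a ratio of CPM values exceeds the deposited change by 0.08 log2 units at every gene, because the totals and the size factors differ. The deposited adjusted p exists for 36 of the 39 genes in both tables. Tuba3a, Tuba3b and Tubb1 have none, with mean normalized counts between 1.01 and 2.98 in callosum, and in culture Tuba3b and Tubb1 are listed at 0 and Tuba3a at 0.305.

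The coding ends of 3 alpha tubulins are shown first because the isotype that fell furthest in culture, Tuba4a, lacks the final tyrosine codon that Tuba1c has. Alpha tubulin can be cut and rebuilt at a final tyrosine, the substrate of the tyrosination cycle, and not every alpha tubulin gene encodes it. Below are the last 60 coding bases of these 3 genes (GENCODE M21 transcripts, GRCm38, coding strand), with the last codon before the stop in capitals.
Tuba1c (chr15:99037950-99038009, plus strand): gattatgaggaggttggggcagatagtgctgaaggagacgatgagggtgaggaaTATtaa
Tuba4a (chr1:75215622-75215681, minus strand): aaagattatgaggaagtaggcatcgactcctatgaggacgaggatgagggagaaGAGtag
Tuba8 (chr6:121226020-121226079, plus strand): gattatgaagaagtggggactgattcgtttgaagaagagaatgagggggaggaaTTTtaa
Tuba1c ends in a tyrosine codon (TAT), and Tuba4a and Tuba8 do not. Tuba1a and Tuba1b, whose ends are not shown, also end in a tyrosine codon (TAC). Tuba1a and Tuba1b share 98.3% of their 1356 coding bases. Of the 50-base words of the Tuba1a, Tuba1b and Tuba1c transcripts, 72.9%, 73.8% and 61.0% also occur in a transcript of another gene, against 1.11% for Tuba4a and 0.181% for Tuba8. How the authors' counting treated reads that match several genes is not given in the sources used here. The values of Tuba1a, Tuba1b and Tuba1c are therefore uncertain as single genes. So are the sum of alpha tubulin RNA and all shares of it. In GENCODE M21 both Tuba1a and Tuba1b also share exon bases with the gene model Gm49450, which has no deposited value in either system.

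In the Qk-KO cultures, 14 of the 36 tested genes rose and 5 fell. The largest log2 values among the rises were those of Nefh, Stmn3, Tubb3 and Dpysl4, and Tuba4a, Map7, both TPPP genes and Tubb6 fell. The background is high there, since 28.6% of 17503 tested genes passed (13.3% higher and 15.2% lower). Among genes with a mean of at least 50 normalized counts the share was larger, with 2272 of 13254 higher and 2538 lower. The median change of the set was 0.46 log2 units, against 0.01 over all genes tested, and 12 of the 19 called genes changed at least 2-fold. Without the neurofilaments, 13 of 33 rose and 5 fell. Scaling by library totals shifts every culture gene by 0.08 log2 units and turns the split over all genes from 2336 higher and 2667 lower to 3054 higher and 2296 lower, while the set kept its counts of 14 and 5. When the deposited score was referred to Student's distribution with 4 degrees of freedom, 0 genes of the set and 0 of all genes passed in culture.

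**Figure D1:**
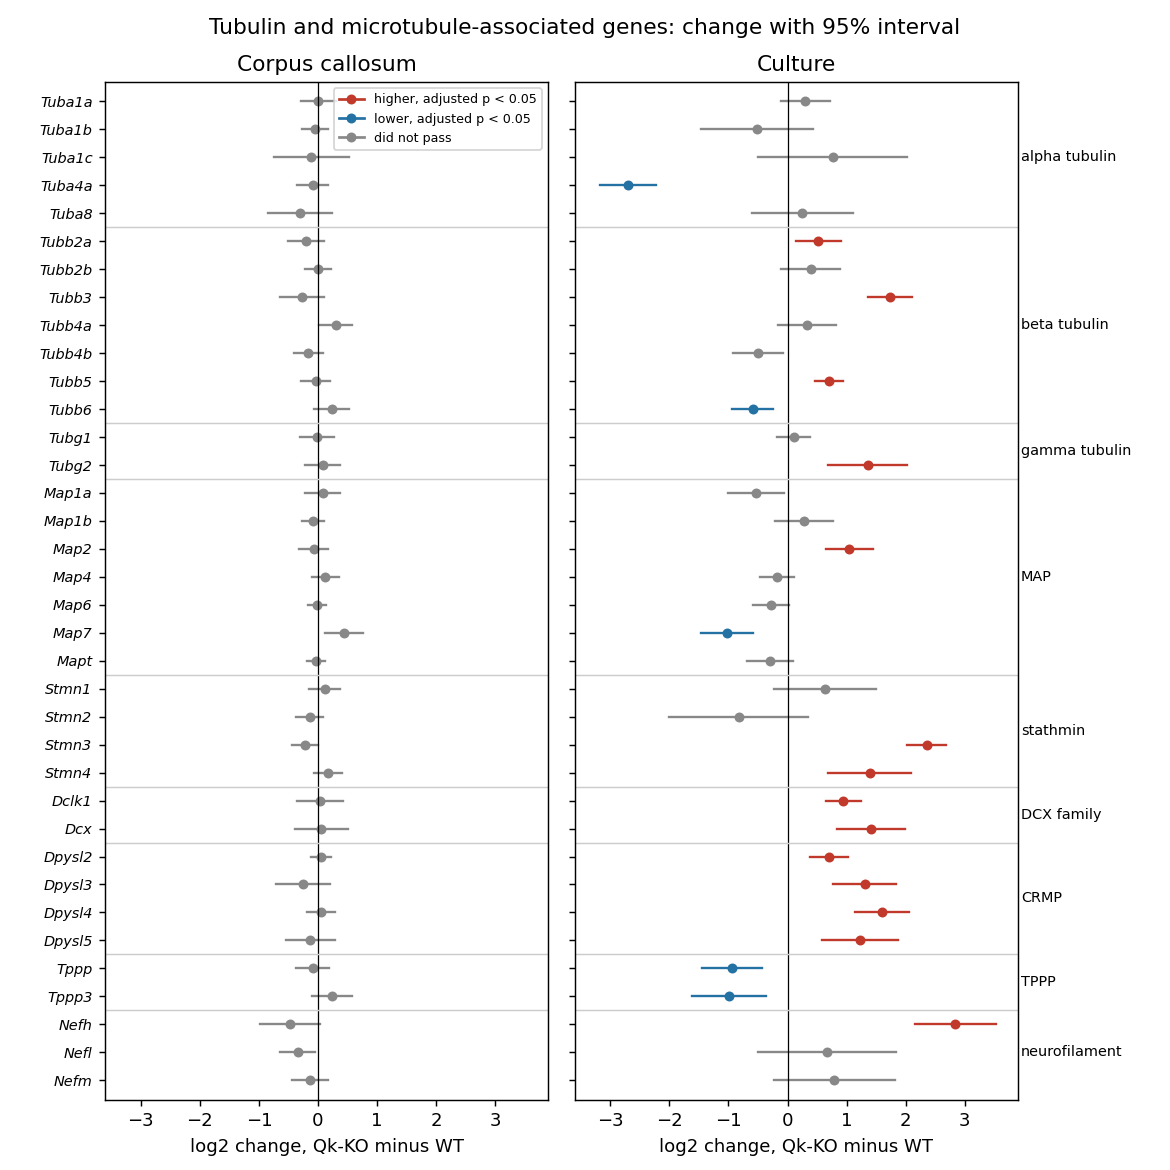
Log2 change of each tested gene (horizontal axis, Qk-KO minus WT; point, deposited change; bar, 95% interval from the deposited standard error) in callosum and culture, grouped by role. In culture 14 genes passed on the higher side and 5 on the lower side, and in callosum all 36 points are grey and lie between -0.48 and 0.45.

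In culture, 1 of 5 tested alpha tubulins fell and none rose (20% called, under the 28.6% of all genes tested). Tuba4a (ENSMUSG00000026202.13, chromosome 1, 75214228 to 75219865) stood at 127 fitted CPM in WT and 20.5 CPM in Qk-KO cultures. It fell 6.51-fold (by 2.70 ± 0.24 log2 units, SE, adjusted p = 2.01e-26, authors' deposited table). Per length, it made 1.61% of alpha tubulin RNA in WT cultures and 0.209% in Qk-KO cultures. The exons of Stk16, on the opposite strand, cover 37.3% of its annotated exon bases, and without a stated strand setting reads there cannot be told apart. The authors' deposited table has Stk16 at 0.21 ± 0.14 in culture (adjusted p = 0.268). Tuba1a, the chief alpha tubulin of growing neural cells, was the most abundant gene of the set per length, at 1869 CPM per kb in WT and 2429 CPM per kb in Qk-KO cultures, or 87.8% and 91.7% of alpha tubulin RNA. Its change of 0.30 ± 0.21 did not pass (adjusted p = 0.311, authors' deposited table). In the authors' deposited table Tuba1b (-0.52 ± 0.49) and Tuba1c (0.76 ± 0.65) had among the widest errors of the set, Tuba8 had 0.25 ± 0.44, and these 3 missed the threshold. Tuba1b went from 338 to 249 CPM.

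The beta tubulins moved in both directions in culture, with 3 of 7 tested genes higher and 1 lower. That is 57.1% called, against 28.6% of all genes tested. Tubb3 (ENSMUSG00000062380.3, chromosome 8, 123411424 to 123422015), the beta tubulin that marks neurons, went from 39.2 to 138 CPM. Its rise was 3.33-fold (log2 1.74 ± 0.19, adjusted p = 1.32e-18, authors' deposited table), and none of its 50-base words occurs in a transcript of another gene. Tubb5 (ENSMUSG00000001525.10, chromosome 17, 35833921 to 35838306), a broadly expressed isotype, rose from 430 to 738 CPM, by 0.70 ± 0.12 (adjusted p = 1.49e-07, authors' deposited table). Tubb2a, an isotype abundant in brain, rose by 0.52 ± 0.19 (adjusted p = 0.0299), from 182 to 275 CPM, close to the threshold in the authors' deposited table. Its neighbour Tubb2b, 1 of the main isotypes of young neurons, stood at 377 and 523 CPM, and its 0.39 ± 0.25 missed the threshold (authors' deposited table). The minor isotype Tubb6 fell by 0.59 ± 0.18 in the authors' deposited table (adjusted p = 0.00572), with 31.2 CPM in WT and 21.8 CPM in Qk-KO. Tubb4b, which is also a tubulin of cilia, did not pass at -0.50 ± 0.21 (adjusted p = 0.0631, authors' deposited table), although its level per length was the second highest of the set in WT cultures (250 CPM per kb, 186 in Qk-KO). Tubb4a, an isotype of neurons and myelinating oligodendrocytes, had 0.32 ± 0.25 (adjusted p = 0.368, authors' deposited table). As a share of beta tubulin RNA per length, Tubb4b went from 32.3% to 18.6%, Tubb3 from 2.72% to 7.40% and Tubb5 from 16.7% to 22.3%. These shares come from the fitted levels and carry no error of their own.

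Tubb2a and Tubb2b are shown as a pair because 1 of them passed and the other did not, while reads from their coding parts are hard to assign. The last 60 coding bases of each follow, with the bases that differ between the pair in capitals.
Tubb2a (chr13:34074468-34074527, minus strand): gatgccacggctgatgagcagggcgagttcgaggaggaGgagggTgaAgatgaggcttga
Tubb2b (chr13:34127471-34127530, minus strand): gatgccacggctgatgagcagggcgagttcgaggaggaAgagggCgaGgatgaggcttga
They differ at 3 of these 60 bases and are identical at 96.5% of their 1338 coding bases. Of the 50-base words of Tubb2a and Tubb2b, 49.6% and 39.3% were found in another gene's transcripts. Sharing of that order holds for Tubb4b (50.9%, mostly with its pseudogene Tubb4b-ps1), and Tubb4a, Tubb5 and Tubb6 shared at most 0.184%. The values of Tubb2a, Tubb2b and Tubb4b are therefore uncertain as single genes too, and so are the shares of beta tubulin RNA.

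**Figure D2:**
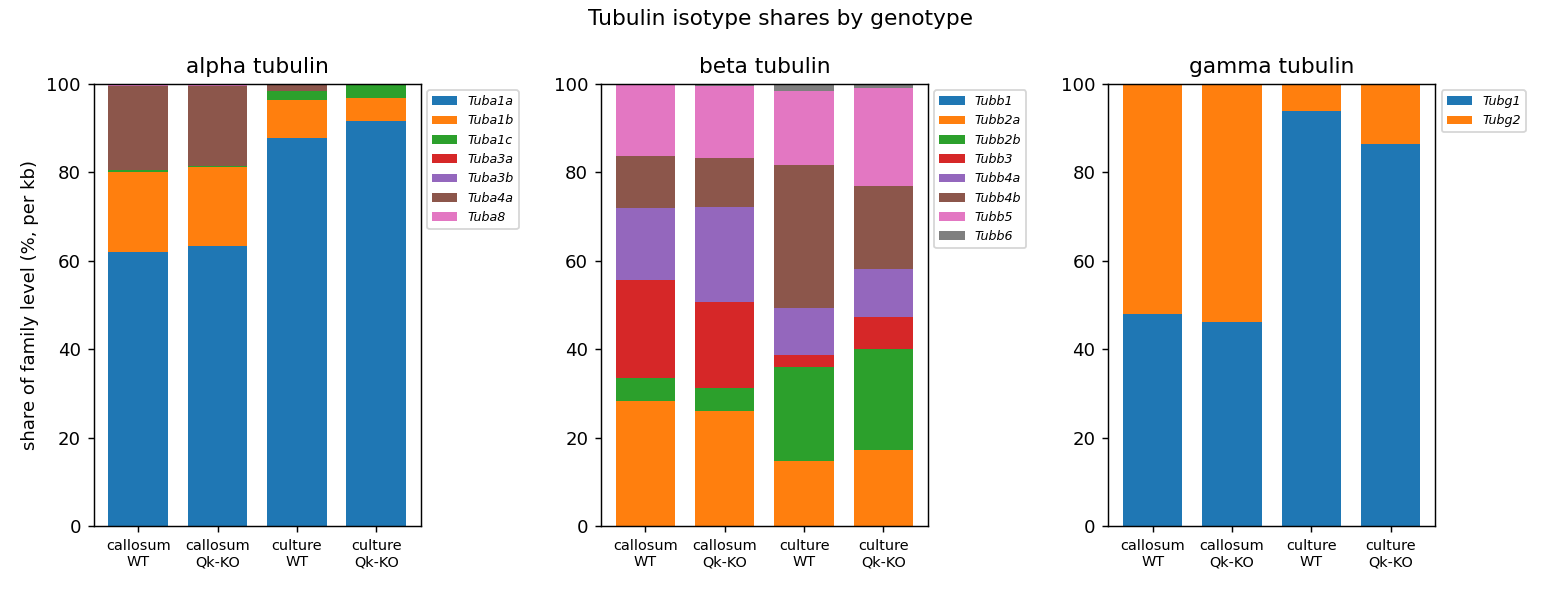
Share of each alpha, beta and gamma tubulin gene in the summed fitted level of its family (vertical axis, percent, levels per kilobase of exon) in WT and Qk-KO callosum and culture. In culture the Tubb3 band widened from 2.72% to 7.40% and the Tubb4b band narrowed from 32.3% to 18.6%, and in callosum the Tubb4a band went from 16.4% to 21.3%. Bars hold 1 fitted value per genotype and have no error.

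Of the gamma tubulins, which seed microtubules at centrosomes, Tubg2 rose and Tubg1 did not pass in culture. Tubg2, the isotype known from brain, rose from a low level, 1.39 to 3.75 CPM, a 2.56-fold change in the authors' deposited table (log2 1.35 ± 0.34, adjusted p = 5.37e-04). Tubg1, the general isotype, had 0.10 ± 0.14 in the authors' deposited table, at 26.9 and 30.4 CPM. Per length, Tubg2 made 6.25% of gamma tubulin RNA in WT and 13.7% in Qk-KO cultures. The 2 genes share 14.1% to 14.3% of their 50-base words.

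Of the 7 classical microtubule-associated proteins, 1 was higher in culture, 1 lower and 5 did not pass. Their called share of 28.6% equals the share over all genes tested there. All 7 had means of at least 617 normalized counts. Among all genes with a mean of at least 50 the called share was larger (2272 of 13254 higher and 2538 lower). Map2 (ENSMUSG00000015222.17, chromosome 1, 66175273 to 66442583), which stabilises dendritic microtubules, rose 2.06-fold in the authors' deposited table (log2 1.04 ± 0.20, adjusted p = 4.27e-06), with 686 CPM in WT and 1491 CPM in Qk-KO. Map7, which recruits kinesin-1 to microtubules, fell by 1.02 ± 0.23 in the authors' deposited table (adjusted p = 6.56e-05), with 18.4 CPM in WT and 9.59 CPM in Qk-KO. Tau (Mapt), an axonal protein also made by oligodendrocytes, had -0.30 ± 0.20 (432 to 370 CPM), and Map1a, of mature neurons, -0.53 ± 0.24 (authors' deposited table, adjusted p = 0.0822 for Map1a). Map1b, the form of growing axons, had 0.28 ± 0.25 (777 to 995 CPM), Map4, the form of non-neuronal cells, -0.19 ± 0.15, and Map6, which protects microtubules from cold, -0.27 ± 0.15 in the authors' deposited table.

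Of 4 stathmins, 2 rose in culture (50% called, against 28.6% of all genes tested), and Stmn3 had the smallest adjusted p of the set. Stmn3 (ENSMUSG00000027581.12, chromosome 2, 181306459 to 181314500), a membrane-bound stathmin of neurons, went from 45.5 to 246 CPM. It rose 5.12-fold (log2 2.36 ± 0.17, 95% interval 2.02 to 2.69, adjusted p = 1.4e-40, authors' deposited table). Stmn4 rose by 1.39 ± 0.36 (adjusted p = 7.64e-04, authors' deposited table) at a lower level, 2.80 to 7.75 CPM. Stmn1, the soluble stathmin of dividing and immature cells, stood at 64.0 and 105 CPM with a wide error (0.64 ± 0.44, adjusted p = 0.3, authors' deposited table), and 36.5% of its 50-base words are shared, mostly with the gene model Gm11223. Stmn2, a marker of axonal growth, was almost absent from both cultures (0.568 and 0.337 CPM), and its -0.83 ± 0.60 missed the threshold (adjusted p = 0.332, authors' deposited table).

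The 2 doublecortin genes and the 4 collapsin response mediator genes of the set rose in culture, where 13.3% of all genes tested rose. Dcx, a protein of migrating neurons, rose 2.67-fold in the authors' deposited table (log2 1.42 ± 0.30, adjusted p = 1.9e-05), with 49.3 CPM in WT and 139 CPM in Qk-KO. Dclk1, its kinase-bearing relative, rose by 0.94 ± 0.15 in the authors' deposited table (adjusted p = 6.78e-09), with 96.2 CPM in WT and 195 CPM in Qk-KO. Among the mediators, which bind tubulin dimers, Dpysl4 (ENSMUSG00000025478.15, chromosome 7, 139086001 to 139102704) rose 3.01-fold, by 1.59 ± 0.23 in the authors' deposited table (adjusted p = 2.7e-10), with 65.7 CPM in WT and 209 CPM in Qk-KO. Dpysl3 rose by 1.31 ± 0.27, from 177 to 462 CPM, Dpysl5 by 1.22 ± 0.33, from 5.87 to 14.5 CPM, and Dpysl2 by 0.70 ± 0.17, from 308 to 529 CPM, in the authors' deposited table. Their adjusted p values there were 2.22e-05, 0.00139 and 2.29e-04. Dpysl2, the most abundant of the 4 per length in both genotypes, had the smallest log2 value. Crmp1, the remaining gene of that family and no member of the set, rose by 2.11 ± 0.17 (adjusted p = 4.68e-32, authors' deposited table). The doublecortin relatives outside the set, Dclk2 (-0.18 ± 0.19, adjusted p = 0.549) and Dclk3 (-0.28 ± 0.49, adjusted p = 0.74), missed the threshold in the authors' deposited table.

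Both TPPP genes of the set fell in culture, where 15.2% of all genes tested fell. Tppp (ENSMUSG00000021573.14, chromosome 13, 74009407 to 74035753), the tubulin polymerisation-promoting protein of oligodendrocytes, fell by 0.93 ± 0.26 in the authors' deposited table (adjusted p = 0.00189), with 102 CPM in WT and 56.4 CPM in Qk-KO. Tppp3 fell by 0.99 ± 0.32 in the authors' deposited table (adjusted p = 0.00954), with 24.7 CPM in WT and 13.1 CPM in Qk-KO. The deposited changes correspond to reductions of 47.7% and 49.6%.

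Neurofilament RNA was scarce in culture, at 1.16 CPM for the 3 genes together in WT and 4.30 CPM in Qk-KO. Nefh, the heavy chain, rose from 0.388 to 2.93 CPM, a 7.17-fold change in the authors' deposited table (log2 2.84 ± 0.35, adjusted p = 3.93e-14). In the authors' deposited table Nefl (0.67 ± 0.59) and Nefm (0.79 ± 0.53) missed the threshold, with mean normalized counts of 17.8 and 29.2. Nefl and Nefm overlap over 1108 exon bases on opposite strands, where reads cannot be told apart without strand.

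Markers of several cell types also changed in culture, where 28.6% of all genes tested passed. Of 20 neuron markers that are not cytoskeletal, 16 were tested, and 12 of them rose and none fell, with a summed level of 218 CPM in WT and 494 CPM in Qk-KO. Snap25, a synaptic fusion protein, rose by 3.84 ± 0.23, Celf4 by 2.40 ± 0.28 and Syn1 by 2.33 ± 0.28, while the abundant Thy1 had -0.10 ± 0.24 in the authors' deposited table. The transporter gene Slc17a6 of excitatory neurons is listed at 0. Immature neuron markers rose in 12 of 16 tested cases (1772 to 3412 CPM), led by Nnat (1.72 ± 0.18), Insm1 (2.23 ± 0.32) and Celf5 (1.73 ± 0.30), with Sox4 at 0.30 ± 0.16 in the authors' deposited table. Nnat alone went from 315 to 1097 CPM within that sum. Elavl3, which rose by 0.91 ± 0.23 in the authors' deposited table, is counted in both neuron lists. Astrocyte markers fell in 12 of 14 cases and none rose, from 15063 to 4530 CPM, and Gfap alone fell by 3.37 ± 0.29 in the authors' deposited table. Mature oligodendrocyte markers, of the cells the cultures are labelled as, summed to 3248 and 2607 CPM, with 2 of 15 higher and 2 lower (26.7% called). Of newly formed oligodendrocyte markers, 3 of 10 rose and 2 fell (4672 to 4453 CPM, 50% called). Of precursor markers, 2 of 13 rose and 2 fell (2741 to 2760 CPM, 30.8% called). Ependymal markers, of ciliated cells, fell in 3 of 6 tested cases (90.3 to 43.6 CPM), and proliferation markers rose in 9 of 14 (138 to 223 CPM), among them Mki67 (1.24 ± 0.22, authors' deposited table). Of the microglia markers 7 of 16 rows are listed at 0, and P2ry12, a receptor gene of microglia, fell (2.17 to 0.502 CPM). In RNA from mixed cells fewer cells of a type and less RNA per cell cannot be told apart. The part of these markers in the changes of the tubulin and microtubule genes was not tested.

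**Figure D3:**
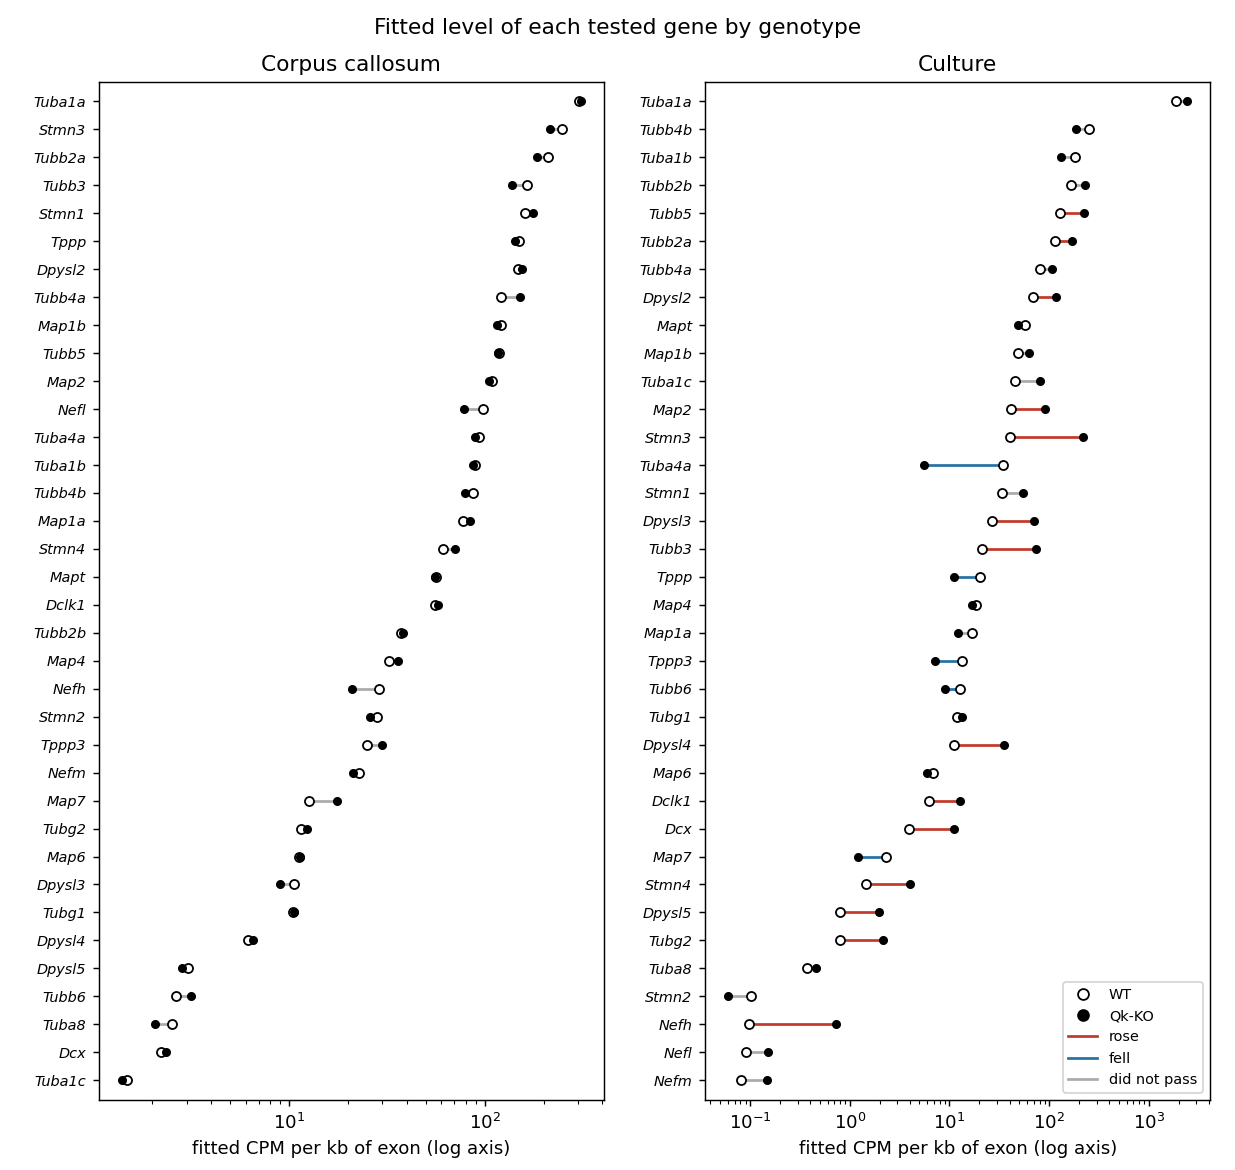
Fitted level of each tested gene (horizontal log axis, fitted CPM per kilobase of exon) in WT (open) and Qk-KO (filled), ordered by the WT level, for callosum and culture. In culture Tuba1a stands alone at 1869 and 2429, and Stmn3 crosses from 40.1 to 216, while Stmn2, Nefl and Nefm stay under 0.2 in both genotypes.

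The callosum gave no call among these genes. Of the 36 tested, 0 passed in either direction (3 at an unadjusted p under 0.05), where 2.32% of 19935 tested genes passed (2.09% higher and 0.231% lower), a share that amounts to under 1 gene in 36. The median change was -0.04 log2 units, against -0.01 over all genes tested, and the changes ran from -0.48 to 0.45. The 95% interval lay within 0.5 log2 units of 0 on both sides for 23 of the 36 genes, and the widest bound reached -0.99, for Nefh.

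The 3 callosum genes with an unadjusted p under 0.05 were Map7, Nefl and Tubb4a, named after their values were seen. Map7 had 0.45 ± 0.17 in the authors' deposited table (adjusted p = 0.204), with 101 CPM in WT and 139 CPM in Qk-KO, the opposite sign to its fall in culture. Nefl had -0.34 ± 0.15 in the authors' deposited table (adjusted p = 0.39), with 330 CPM in WT and 264 CPM in Qk-KO. Tubb4a had 0.30 ± 0.14 in the authors' deposited table (adjusted p = 0.556), with 271 CPM in WT and 338 CPM in Qk-KO. The genes with the largest means in callosum were close to 0 in the authors' deposited table, with Map1b at -0.08 ± 0.09 (1913 and 1833 CPM), Map2 at -0.07 ± 0.13 (1791 and 1729 CPM), Map1a at 0.08 ± 0.15 (947 and 1018 CPM) and Dclk1 at 0.04 ± 0.20 (850 and 886 CPM). Tppp, at 761 and 725 CPM, had -0.09 ± 0.14, Dpysl2, at 666 and 703 CPM, 0.06 ± 0.09, and Tuba1a, at 549 and 561 CPM, 0.01 ± 0.15 in the authors' deposited table. Map4 (491 and 545 CPM) had 0.13 ± 0.11 and Tubb5 (391.9 and 388.1 CPM) -0.04 ± 0.12 in the authors' deposited table. Mapt (424 and 419 CPM) had -0.04 ± 0.08 and Map6 -0.01 ± 0.08, the narrowest errors of the set in the authors' deposited table. All 3 neurofilament values were negative, with Nefh at -0.48 ± 0.26 and Nefm at -0.13 ± 0.16 in the authors' deposited table, and together they summed to 577 CPM (WT) and 470 CPM (Qk-KO).

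Callosum tissue holds the RNA of many cell types. Neuron markers summed to 8295 CPM in WT and 7748 CPM in Qk-KO, with 0 of 19 tested genes past the threshold, and mature oligodendrocyte markers to 7728 and 8292 CPM, with 6 of 15 higher and 1 lower. Microglia markers rose in 12 of 15 tested rows (507 to 1160 CPM) and astrocyte markers in 2 of 14 (5551 to 6700 CPM). Newly formed oligodendrocyte markers rose in 1 of 9 tested cases and precursor markers in 0 of 13, where 2.32% of all genes tested passed. Their part in the values above was not tested. In callosum Tuba1a made 62.1% and 63.4% of alpha tubulin RNA per length and Tuba4a 19.0% and 18.2%. Among the beta tubulins Tubb2a led with 28.3% and 25.9%, followed in WT by Tubb3 (22.2% and 19.5%) and Tubb4a (16.4% and 21.3%). Of gamma tubulin RNA, Tubg2 made 52.1% and 53.8%.

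The change differed between the systems for 19 of the 36 genes (two-sided z test on the deposited changes and standard errors, adjusted over 16601 genes, of which 21.5% differed). The 19 are the ones called in culture. Stmn3 differed by 2.58 ± 0.20 log2 units (adjusted p = 2.29e-33), with 2.36 in culture and -0.22 in callosum. Nefh differed by 3.32 ± 0.44 (adjusted p = 2.46e-12) and Tubb3 by 2.00 ± 0.27 (adjusted p = 5.23e-12), both positive in culture and negative, without a call, in callosum. Tuba4a differed by -2.62 ± 0.28 (adjusted p = 1.19e-18), with -2.70 in culture and -0.09 in callosum. Map7 differed by -1.46 ± 0.28 (adjusted p = 3.98e-06). In all, the culture change lay above the callosum change in 14 genes and below it in 5.

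Other genes of the microtubule system, and 10 further intermediate filament genes that do not encode microtubule proteins, were read from 10 lists. In all, 174 genes of these lists were tested in culture. Together 50 of them rose and 29 fell, or 45.4% called against 28.6% of all genes tested, and the lists differed in their share. The background depends on level. Among genes with a mean of at least 50 normalized counts, 2272 of 13254 rose and 2538 fell, a larger share than 28.6%. Of 14 genes for tubulin folding cofactors and the chaperonin, which fold new tubulin, 4 rose and 1 fell in culture (35.7% called). Arl2, a small GTPase of the folding pathway, fell by 0.69 ± 0.14, Cct6a and Cct7 rose by 0.35 ± 0.13 and 0.34 ± 0.13, and Cct2 had 0.25 ± 0.13 in the authors' deposited table. Among the enzymes that modify tubulin, 4 of 18 tested rose and 3 fell (38.9% called). Vash2, which removes the final tyrosine, rose by 1.10 ± 0.21 and the glutamylase gene Ttll4 by 0.65 ± 0.13, Agbl3, a carboxypeptidase gene, fell by 0.84 ± 0.18, and Vash1 had 0.16 ± 0.17 in the authors' deposited table. Plus-end proteins, which bind growing tips, were higher in 3 of 15 cases and lower in 4 (46.7% called), with Ckap5, a microtubule polymerase, down by 0.95 ± 0.13, Clip4 by 0.79 ± 0.13 and Clasp2 by 0.59 ± 0.12, and Nav2 at -0.14 ± 0.13 in the authors' deposited table. Of 10 severing and minus-end genes, 3 rose and 2 fell (50% called). Camsap3 rose by 1.75 ± 0.25 and Camsap1 by 0.62 ± 0.13, both minus-end binders, the katanin-like Katnal1 fell by 0.65 ± 0.15, and Spast had 0.32 ± 0.16 in the authors' deposited table. Around gamma tubulin, 1 of 17 genes rose and 4 fell (29.4% called, near the share over all genes), including the augmin subunits Haus3 and Haus2 (-0.97 ± 0.18 and -0.79 ± 0.18) and Cdk5rap2 (-0.60 ± 0.13), with Tubgcp3 at 0.08 ± 0.13 in the authors' deposited table.

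Among 20 transport kinesin genes, which carry cargo along microtubules, 9 rose and 5 fell in culture (70% called). The neuronal heavy chains Kif5a and Kif5c rose by 1.87 ± 0.15 and 1.80 ± 0.18, Kif1c fell by 1.57 ± 0.20, from 236 to 83.6 CPM, and Kif1b had -0.17 ± 0.13 in the authors' deposited table. Mitotic kinesins and spindle genes rose in 8 of 17 cases and none fell (47.1% called), among them Cenpe (1.13 ± 0.25), Racgap1 (0.84 ± 0.19) and Tpx2 (0.77 ± 0.18), with Kif2a at 0.19 ± 0.18 in the authors' deposited table. These rises stand beside those of the proliferation markers above. Of 23 dynein and dynactin genes, 3 rose and 3 fell (26.1% called, under the share over all genes), with Dynlt3 (-1.38 ± 0.18) and Nde1 (-1.11 ± 0.13) lower, the neuronal Dync1i1 (1.58 ± 0.38) higher and the heavy chain Dync1h1 at 0.23 ± 0.15 in the authors' deposited table. In the list of further microtubule-associated proteins, 11 of 30 rose and 5 fell (53.3% called), with Crmp1 and Cdk5r1 (1.13 ± 0.22), an activator of the tau kinase Cdk5, higher, Mid2 lower (-0.81 ± 0.16) and Map7d1, a relative of Map7, at 0.20 ± 0.19 in the authors' deposited table. Of 10 other intermediate filament genes, 4 rose and 2 fell (60% called). The neuronal Ina rose by 2.70 ± 0.22 and Nes by 0.61 ± 0.14, Gfap fell, and Vim had -0.50 ± 0.22 in the authors' deposited table.

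In callosum the same lists held 3 calls among 173 tested genes, all higher, or 1.73% called against 2.32% of all genes tested, where 417 of 463 calls were higher. They included Kif13a (0.52 ± 0.13, adjusted p = 0.00256), a kinesin of membrane traffic, and Eml1 (1.22 ± 0.15, adjusted p = 6.89e-13), a microtubule-binding protein, in the authors' deposited table. The other was Gfap (2.06 ± 0.19, adjusted p = 2.3e-24, authors' deposited table), an intermediate filament gene and astrocyte marker. Eml1 went from 88.9 to 210 CPM in callosum. It was also higher in culture (1.44 ± 0.47, adjusted p = 0.00986, authors' deposited table), whereas Gfap fell there. Among the genes with the highest means of their lists that missed the threshold were Kif5a (0.03 ± 0.17, 2130 and 2214 CPM), Dync1h1 (0.03 ± 0.08) and Clasp2 (-0.11 ± 0.07), in the authors' deposited table.

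**Figure D4:**
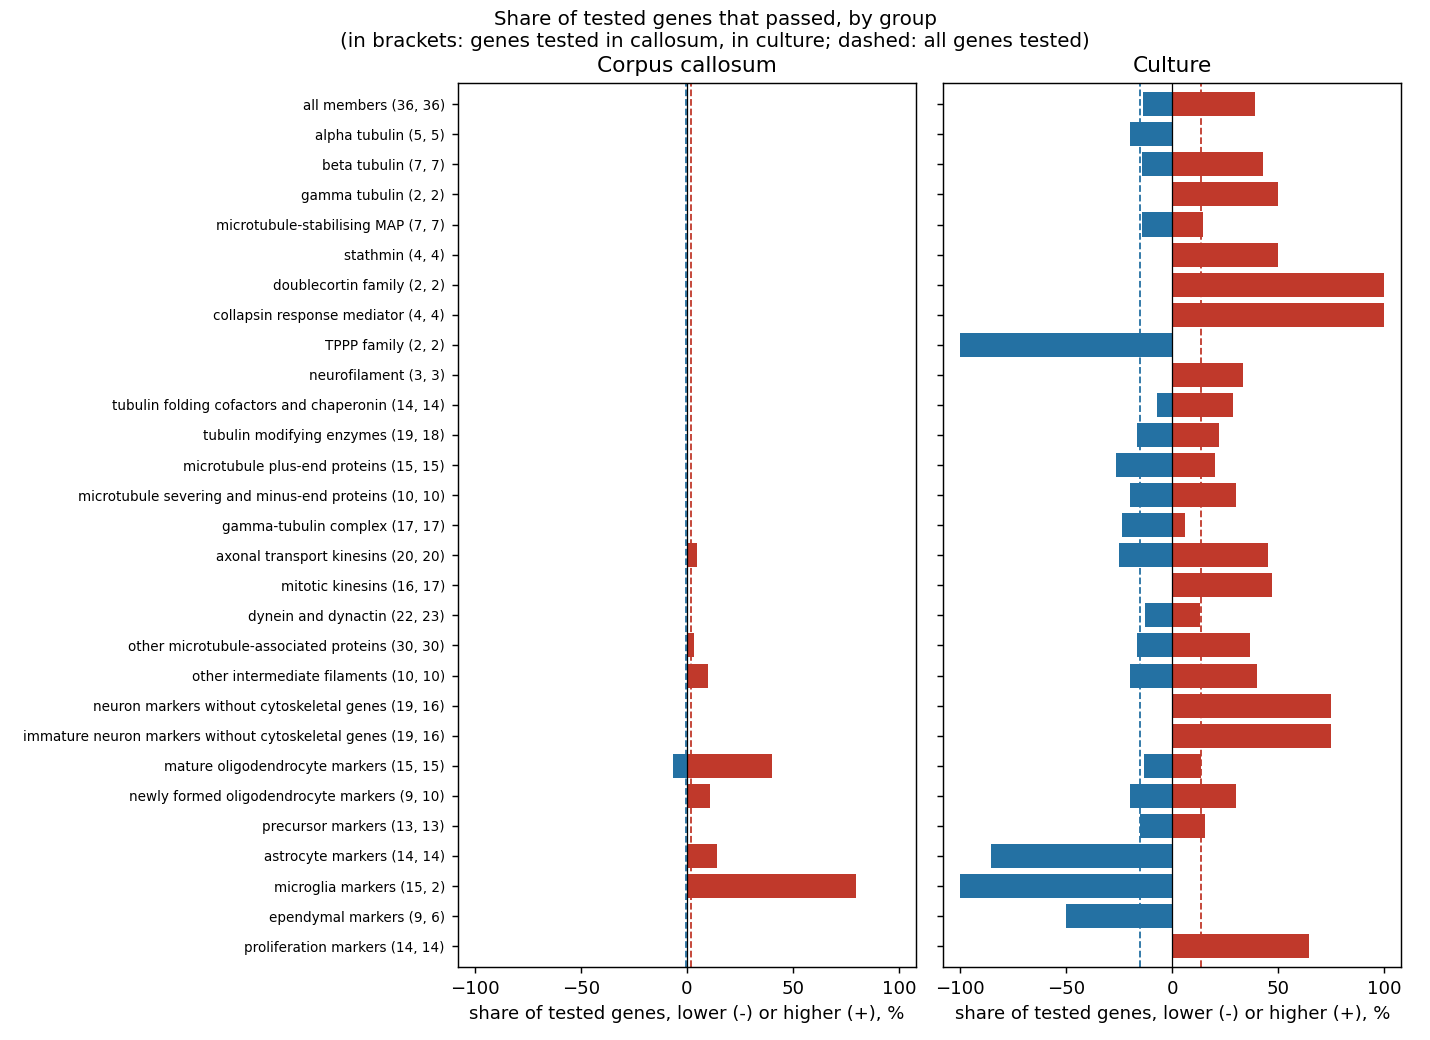
Share of the tested genes of each group that passed an adjusted p under 0.05 (horizontal axis, percent; red to the right, higher; blue to the left, lower), for callosum and culture, with the number tested in callosum and in culture in brackets. Dashed lines give the share over all genes tested; the TPPP and doublecortin rows hold 2 genes each, so a full bar there is 2 calls.

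Quaking binds RNA at a core, ACTAAC or ACTAAT in DNA letters, with a shorter site, TAAC or TAAT, nearby. Both parts were searched on the sense strand of the first 1000 bases after the stop codon, with 1 to 20 bases between them, in 1 transcript per gene where the 3' untranslated end is that long. That transcript was chosen by its coding length, and other transcripts were not searched. The choice left out Mapt (0 untranslated bases after the stop codon in the transcript used), Map2 (181) and Map6 (135), among other genes. The core stood in 4 of 14 genes of the set (28.6%), against 27.0% of 6811 genes tested in culture, and the pair in 1 of 14 (7.14%) against 9.0%. Those with the core were Dcx, Nefl, Tppp and Tuba4a. The gene with the pair was Tppp. Dcx held no pair in these 1000 bases and 1 over its whole untranslated end of 7709 bases, at the largest gap allowed, 20 bases. No share over all genes was computed for whole untranslated ends, so the Dcx site has no background beside it. The 2 sites are shown because their genes moved in opposite directions in culture, with both parts of the pair in capitals (GRCm38).
Tppp (chr13:74031811-74031833, plus strand): ACTAACcaactgcatagagTAAT
Dcx (chrX:143860649-143860678, minus strand): ACTAACttcgtaagtagtgctaagtaTAAT
The Tppp site begins 396 bases and the Dcx site 2873 bases after the stop codon. A match describes these letters and shows no binding.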

How the data were processed

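RNA-seq of total RNA was processed by the authors with FastQC, TopHat2 2.0.14, featureCounts and DESeq2 on build mm10, per the submitters' processing notes. The sources used here do not give the annotation, the strand setting, the model design or whether fold changes were shrunken. The deposited library columns hold log2 values of fitted means plus 1, and within a genotype they differ by 1 constant at every gene within 1e-09, so they carry no replicate spread. The mean column is a normalized signal (counts over size factors), as its header in the deposited tables names it. Log2 fold changes and standard errors as deposited run WT over Qk-KO and were turned round. Dividing one by the other gives the deposited score, and the deposited p-value has a Benjamini-Hochberg adjusted value that was recomputed within 1e-06.

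Fitted CPM, exon lengths (GENCODE M21, GRCm38; 28 of 39 gene versions match), intervals (95%, normal) and the z test between systems were computed in Python 3.11.15 with pandas 2.3.3 and scipy 1.17.1, and the z test was tested on simulated data. All calls use the deposited test with 4 or 3 libraries per genotype. The cultures of a genotype differ in passage, and the labels do not say whether they come from separate cell lines or donors. Nor do the labels say whether the callosum libraries of a genotype come from separate animals. The p-values therefore measure the spread between these libraries. Levels were not compared between the tables, which were normalized separately. Genes, lists and tests were chosen with earlier results of these data known. Every gene of the set may be named; of each list, the 3 called genes with the smallest adjusted p and the gene with the highest mean that did not pass, per system, were eligible. Of the listed symbols, Svbp has no row, and Itgam has 2. Alternatives were other scalings, centring, thresholds, filters and a Student reference. Some items are not reported here.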

Additional observations from a re-analysis of the deposited data

Results flagged for a closer look

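For 19 genes the change in culture differed from the change in callosum by the z test named above (adjusted p under 0.05). Culture minus callosum, in log2 units, the difference was 3.32 for Nefh, 2.58 for Stmn3, 2.00 for Tubb3, 1.56 for Dpysl3, 1.54 for Dpysl4, 1.36 for Dcx, 1.35 for Dpysl5, 1.27 for Tubg2, 1.22 for Stmn4 and 1.12 for Map2. It was 0.91 for Dclk1, 0.74 for Tubb5, 0.72 for Tubb2a and 0.65 for Dpysl2. On the negative side it was -2.62 for Tuba4a, -1.46 for Map7, -1.22 for Tppp3, -0.84 for Tppp and -0.82 for Tubb6. The systems differ in tissue, cell mixture, treatment and age together, and these cannot be told apart.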

How the results depend on the processing

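The counts of 14 higher and 5 lower genes in culture, 0 in callosum and 19 differing between systems were the same under scaling by library totals, centring on the median gene, a minimum change of 0.5 log2 units, no filter on low values and a minimum mean of 50. At an adjusted p under 0.01 they were 13, 5, 0 and 17, and under 0.1 they were 14, 7, 0 and 19. A Student reference for the score (6 and 4 degrees of freedom, and 10 for the difference) left 0 higher and 0 lower in culture and 12 differing. Single changes kept their sign and call in 72 of 72 cases under centring and in 70 under scaling by totals, where Tubg1 and Map6 in callosum turned to 0.0069 and 0.0095 without a call. No paired analysis was possible because the library columns carry fitted means without replicate values, although WT and Qk-KO cultures share passage numbers. Leaving out single replicates was not run for that reason.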
